A study of Mus musculus with 12 samples.

Results

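The 10 genes described here are the 4 Notch receptors (Notch1, Notch2, Notch3, Notch4), the ligands Jag1, Jag2 and Dll4, and the Hey target genes Hey1, Hey2 and Heyl. They were taken by name from a table of 35275 genes, and each name was found on a single row. The table describes carotid arteries of C57BL/6 mice aged 10 weeks, either Poldip2-/- or littermate controls. The Poldip2-/- line lacks exon 4 of Poldip2 in all tissues, after the floxed allele was excised with a Cre expressed in early embryos (EIIa Cre), followed by backcrossing to C57BL/6J. Each artery gave 2 fractions. The lumen was flushed with a lysis reagent to collect an endothelial-enriched RNA, called endothelial here, and RNA of the vessel that remained, with its media and adventitia, is called medial. The labels list 2 endothelial samples of each genotype and 4 medial samples of each genotype, 12 in all. The series design describes 4 mice of each genotype, so an endothelial group value may rest on 4 mice or on 2, and which libraries make up each value is not given in the sources used here.

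Every value below is 1 number per group, an FPKM (fragments mapped to a gene, divided by its length and by the library size), copied from the group columns of the deposited table. No spread between mice could be attached to it, so no test was made, neighbouring levels cannot be separated from one another by their error, and a difference is described by its size alone. Ratios are log2 of (FPKM + 1) in 1 group over (FPKM + 1) in the other. The pseudocount of 1 holds down the ratios of genes near or under 1 FPKM. A gene was called higher or lower when its ratio was at least 2-fold, a log2 ratio of 1 in size, and its mean over the 2 groups was at least 1 FPKM.

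Notch receptors are cleaved after they bind a Jagged or Delta-like ligand on a neighbouring cell. The freed intracellular domain enters the nucleus and, together with the DNA-binding protein RBPJ and a Mastermind coactivator, turns on genes such as those of the Hey and Hes families, which encode transcriptional repressors. In arteries, NOTCH1, NOTCH4 and DLL4 are known from the endothelium and from arterial specification, whereas NOTCH3 is the receptor typical of smooth muscle, where signals from JAG1 promote a mature contractile state. HEYL is a known target of NOTCH3 in mural cells.

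RBPJ binds a core written TGGGAA, or TTCCCA on the other strand. In RefSeq windows of 300 bases (250 before and 50 after the start site, GRCm38.p6) this core was present in 25.6% of 32851 windows, and 3.79% of them held at least 2. Windows were found for 8 of the 10 genes, all but Hey1 and Heyl. Hey2 held 2 cores, which began 207 and 3 bases before its start site, and no core was found in the windows of Notch1, Notch2, Notch3, Notch4, Jag1, Jag2 or Dll4. The sequences of Hey2 (chr10:30842781-30843033, minus strand) and of Notch3 (chr17:32166891-32167140, minus strand) are shown 5′ to 3′ because Hey2 had the highest level of the 10 genes in both endothelial groups and carried both cores, in capitals, whereas Notch3, the only receptor called between genotypes, had none in its window.
Hey2: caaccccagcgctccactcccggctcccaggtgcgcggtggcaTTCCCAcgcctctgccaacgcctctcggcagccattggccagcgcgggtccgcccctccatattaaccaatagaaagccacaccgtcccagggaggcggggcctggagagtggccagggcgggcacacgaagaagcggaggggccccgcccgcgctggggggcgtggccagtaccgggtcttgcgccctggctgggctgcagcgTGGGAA
Notch3: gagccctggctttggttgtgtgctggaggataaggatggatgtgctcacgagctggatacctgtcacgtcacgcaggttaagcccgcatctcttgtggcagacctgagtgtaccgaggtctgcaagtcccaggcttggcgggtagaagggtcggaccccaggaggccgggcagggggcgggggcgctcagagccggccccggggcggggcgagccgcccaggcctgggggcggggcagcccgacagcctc
A match to these letters is a description of the sequence and not a binding site. The E-box CACGTG, which HEY proteins can bind and which reads the same on both strands, was found in 7.15% of all windows and in none of the 8.

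The deletion was visible in both fractions. Poldip2 stood at 21.1 FPKM in endothelial control and 8.27 in endothelial Poldip2-/-, and at 35.9 and 10.3 in the medial groups (log2 ratios -1.25 and -1.71). The fractions carried the markers of their labels. Pecam1, an endothelial adhesion molecule, had 1887 and 2140 FPKM in the endothelial groups (control, then Poldip2-/-) and 68.7 and 44.7 in the medial groups. Acta2, smooth muscle actin, had 3664 and 14524 FPKM in the medial groups and 101 and 313 in the endothelial groups. Medial tissue also carried adventitial cells, with summed FPKM of 10 fibroblast markers of 17653 in control and 8391 in Poldip2-/-, of 10 leukocyte markers of 4027 and 861, and of 8 fat cell markers of 2973 and 765. The genotypes thus differed in the cell type markers of the medial fraction, with lower sums for these 3 cell types and a higher sum for smooth muscle in Poldip2-/-. Among medial markers tested, 7 of 10 fibroblast, 8 of 9 leukocyte and 7 of 8 fat cell markers were called lower. Not all markers went down. The fat cell marker Plin4 was called higher (log2 ratio 2.02). Of the fibroblast markers not called, Col1a1 was at 0.69, Col3a1 at 0.03 and Gsn at -0.98. The 10 smooth muscle markers summed to 6634 and 26430, and all 10 were called higher with a median log2 ratio of 2.25. Of the 12 endothelial markers 11 passed the minimum there, 4 were called lower and their median was -0.72. Endothelial RNA also differed between genotypes, with 9 of 10 fibroblast markers called lower (sums 1078 and 470, median log2 ratio -1.68) and a higher smooth muscle sum (207 and 560). In bulk RNA, fewer cells of a type and less RNA per cell cannot be told apart.

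Levels of the 10 genes separated by layer. In endothelial control the order was Hey2, Notch1, Jag1, Notch4, Notch2, Dll4, Hey1, Jag2, Heyl and Notch3, from 43.3 down to 0.0597 FPKM. In medial control it was Heyl, Hey2, Jag1, Notch2, Hey1, Notch1, Notch4, Notch3, Dll4 and Jag2, from 19.2 down to 0.171. Hey2 led the 10 in both endothelial groups and Heyl led in both medial groups.

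**Figure D1:**
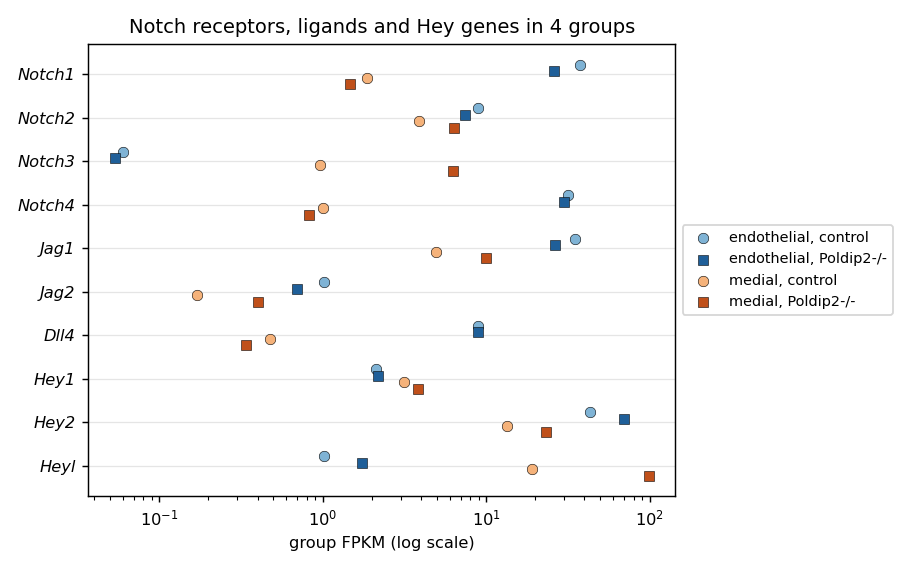
Group FPKM of each gene on a log axis, with circles for control and squares for Poldip2-/-, blue for endothelial and orange for medial RNA; each point is 1 value per group with no error bar. Heyl in the medial layer moved from 19.2 to 98.7 FPKM and Notch3 from 0.966 to 6.23, while Notch1, Notch4 and Dll4 kept to the endothelial side in both genotypes.

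Notch1 (chr2:26457903-26516663, minus strand, GRCm38) encodes the receptor best known from arterial endothelium. Its FPKM was 37.8 in endothelial control, 26.2 in endothelial Poldip2-/-, 1.87 in medial control and 1.47 in medial Poldip2-/-. The level in the endothelial layer of Poldip2-/- arteries was 69.4% of control, with a log2 ratio of -0.51, and 4.47% of the genes tested had a lower ratio. It did not reach 2-fold. The medial ratio was -0.21. Across layers, endothelial Notch1 exceeded medial Notch1 20.2-fold in control and 17.8-fold in Poldip2-/- arteries.

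Notch4 (chr17:34564268-34588503, plus strand) encodes a receptor largely restricted to endothelial cells. It had 31.8 and 30.1 FPKM in the endothelial groups, control then Poldip2-/-, and 1.01 and 0.822 in the medial groups. The endothelial genotype ratio was -0.08, which turned to 0.06 when ratios were centred on genes of like length, and the medial ratio was -0.14, which turned to 0.03 when centred on all genes. Endothelial Notch4 exceeded medial Notch4 31.6-fold in control and 36.7-fold in Poldip2-/- arteries.

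Notch2 (chr3:98013538-98150367, plus strand), a receptor shared by smooth muscle and many other cells, was the most evenly spread of the 4. It had 8.94 and 7.40 FPKM in the endothelial groups and 3.88 and 6.36 in the medial groups. The genotype ratios were -0.24 and 0.59, of opposite sign in the layers and neither past 2-fold. Notch2 was called lower in the medial layer in control (log2 ratio -1.03) but not in Poldip2-/- arteries (-0.19), and the control ratio was -0.42 when centred on genes of like length.

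Notch3 (chr17:32120820-32166880, minus strand), the smooth muscle receptor, was the only one of the 4 called between genotypes. Its FPKM was 0.0597 and 0.0535 in the endothelial groups and 0.966 and 6.23 in the medial groups. Medial Notch3 was thus 6.45-fold higher in Poldip2-/- than in control arteries (log2 ratio 1.88, above 98.3% of the genes tested). The deposited read counts scaled for that comparison were 124 and 936. In the endothelial layer they were 9.39 and 8.50, too few for a genotype ratio to be read, and that ratio of -0.01 turned to 0.13 with centring by length. Between layers Notch3 was called higher on the medial side in Poldip2-/- (log2 ratio 2.78), while in control arteries its mean of 0.513 FPKM fell under the minimum (ratio 0.89).

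The make-up of the receptor pool followed from these values. In summed receptor FPKM the endothelial groups had 78.6 and 63.8, and the medial groups 7.73 and 14.9. Notch1 and Notch4 together made up most of the endothelial pool, at 48.1% and 40.5% in control and 41.1% and 47.2% in Poldip2-/-. Notch2 was the main medial receptor in control, at 50.3%, ahead of Notch1 at 24.2%, Notch4 at 13.0% and Notch3 at 12.5%. The control values of Notch4 (1.01 FPKM) and Notch3 (0.966) lay in the range of the medial control background described below. That background was lower in medial Poldip2-/- RNA. In medial Poldip2-/- RNA, Notch2 at 42.7% and Notch3 at 41.9% lay side by side, with Notch1 at 9.90% and Notch4 at 5.52%.

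**Figure D2:**
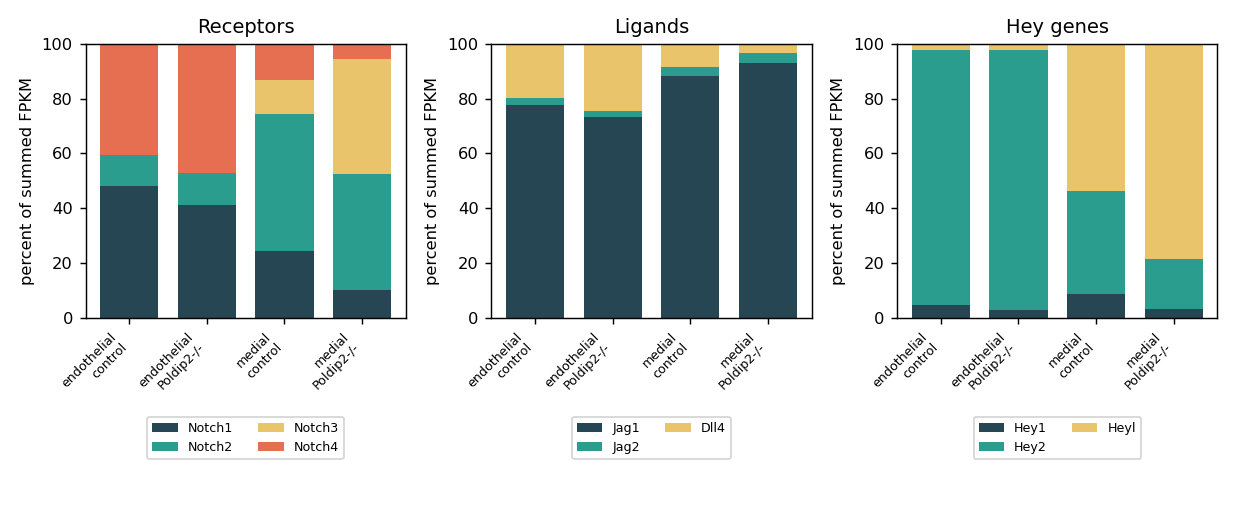
Stacked bars of the percent of summed FPKM contributed by each gene to the receptors, the 3 ligands and the Hey genes in each of the 4 groups. Notch3 made up 12.5% of the medial receptor pool in control and 41.9% in Poldip2-/-, and Heyl 53.6% and 78.6% of the medial Hey pool. The medial control values of Notch3 and Notch4 lay in the background range of that group.

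Among the ligands, Jag1 (chr2:137081456-137116644, minus strand) was the highest of the 3 in all groups. JAG1 on endothelial and smooth muscle cells activates NOTCH3 in mural cells. It had 35.1 and 26.4 FPKM in the endothelial groups and 4.91 and 10.0 in the medial groups. The genotype ratios had opposite signs, at -0.39 for endothelial and 0.90 for medial RNA. Medial Jag1 was 2.04-fold higher in FPKM but not past 2-fold on the (FPKM + 1) scale. It was past 2-fold with a pseudocount of 0.1 (1.01), after centring on all genes (1.06) and from scaled read counts (1.25). After centring by length it was not (0.79). Jag1 in the medial layer was 14.0% of its endothelial level in control and 37.8% in Poldip2-/- arteries, and it was called lower in the medial layer in both.

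Dll4 (chr2:119325784-119335962, plus strand), the Delta-like ligand of arterial and sprouting endothelium, had 8.94 and 8.86 FPKM in the endothelial groups. In the medial groups it had 0.473 and 0.338, from 28.6 and 23.1 scaled reads. The endothelial genotype ratio was -0.01, and the medial ratio of -0.14 turned to 0.03 when centred on all genes. Dll4 was called lower in the medial layer in both genotypes, by 18.9-fold and 26.2-fold in FPKM.

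Jag2 (chr12:112908590-112929495, minus strand), a second Jagged ligand, was the lowest of the 3 in 3 of the 4 groups, the exception being medial Poldip2-/- RNA, where Dll4 was lower. It had 1.02 and 0.698 FPKM in the endothelial groups and 0.171 and 0.401 in the medial groups. It was under the minimum of 1 FPKM in all 4 comparisons, and no call was made.

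Dll1, a Delta-like ligand that is not among the 10 genes, stood above all 3 ligands in the endothelial layer, at 97.7 FPKM in control and 62.9 in Poldip2-/-. It had 3.23 and 1.31 in the medial groups. With Dll1 added to the ligand sum it made up 68.5% and 63.6% in the endothelial groups and 36.8% and 10.9% in the medial groups, so that Jag1 went from 55.9% of medial ligand FPKM in control to 83.0% in Poldip2-/-.

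Heyl (chr4:123233556-123249875, plus strand) was the one Hey gene called between genotypes. It and Notch3 had the largest genotype ratios of the 10 genes, with Heyl ahead on the (FPKM + 1) scale and Notch3 ahead in FPKM, with a pseudocount of 0.1 and from scaled read counts. The FPKM of Heyl was 1.02 in endothelial control, 1.73 in endothelial Poldip2-/-, 19.2 in medial control and 98.7 in medial Poldip2-/-. The medial level was 5.15-fold higher without Poldip2 (log2 ratio 2.31, above 99.3% of the genes tested), from 1397 and 8406 scaled reads. In the endothelial layer the ratio was 0.44, above 96.4% of the genes tested but not past 2-fold. Medial Heyl exceeded endothelial Heyl 18.8-fold in control and 57.0-fold in Poldip2-/- arteries.

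Hey2 (chr10:30832359-30842801, minus strand) encodes a repressor of arterial endothelium and smooth muscle, and its start region is shown above. It had 43.3 and 69.8 FPKM in the endothelial groups and 13.5 and 23.1 in the medial groups. The level was thus higher in Poldip2-/- arteries in both layers and by similar amounts, 1.61-fold and 1.71-fold (log2 ratios 0.68 and 0.73). Neither passed 2-fold. The endothelial ratio was above that of 98.8% of the genes tested and the medial ratio above 88.5%. Hey2 was called lower in the medial layer in both genotypes (log2 ratios -1.61 and -1.55).

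Hey1 (chr3:8663362-8667039, minus strand), the third member of the family, was low throughout, with 2.12 and 2.17 FPKM in the endothelial groups and 3.12 and 3.81 in the medial groups. No comparison called it. The endothelial genotype ratio was 0.02, which turned to -0.11 with centring by length, and the medial ratio was 0.22. The Hey genes summed to 46.4 and 73.7 FPKM in the endothelial layer, where Hey2 made up 93.2% and 94.7%. They summed to 35.8 and 126 FPKM in the medial layer, with Heyl at 53.6% and 78.6% and Hey2 at 37.7% and 18.4%.

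Counted together, 0 of the 8 genes that passed the minimum in the endothelial layer were called between genotypes. The same 2-fold rule called 0.434% of all genes tested there higher and 1.44% lower. For medial RNA, 2 of 7 were called higher (Notch3 and Heyl) and 0 lower, beside 7.22% of all genes tested higher and 14.3% lower. Notch3 passed the minimum, set on the mean of the 2 groups, only through its Poldip2-/- value of 6.23 FPKM. Its control value was 0.966, so its place in this count rests on the group where it is high. The median log2 ratio over all 10 genes was -0.04 in the endothelial and 0.43 in the medial layer, beside 0.05 and -0.17 over all genes tested. Of all medial calls, 33.5% were higher, and this share was 45.2% after centring on the median, 50.9% after centring by length and 47.0% from scaled read counts. Notch3 and Heyl were past 2-fold in the medial layer in each of these, with ratios of 2.05, 1.503 and 2.91 for Notch3 and 2.47, 2.33 and 2.59 for Heyl. With a minimum of 5 FPKM, Notch3 was no longer among the genes tested.

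Medial genotype ratios also varied with gene length, and the receptors are long. The longest twentieth of the genes tested, of 7439 to 26901 bases, held Notch1, Notch2 and Notch3 and had a median log2 ratio of 0.38, with 18.9% of its genes higher and 1.83% lower. Against that median Notch3 was at 1.503, Notch2 at 0.22 and Notch1 at -0.59. Heyl, of 4537 bases, lay in a bin with a median of -0.02, Hey2 in a bin with -0.18 and Jag1 in a bin with 0.11. The part of length in these ratios was not tested.

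**Figure D3:**
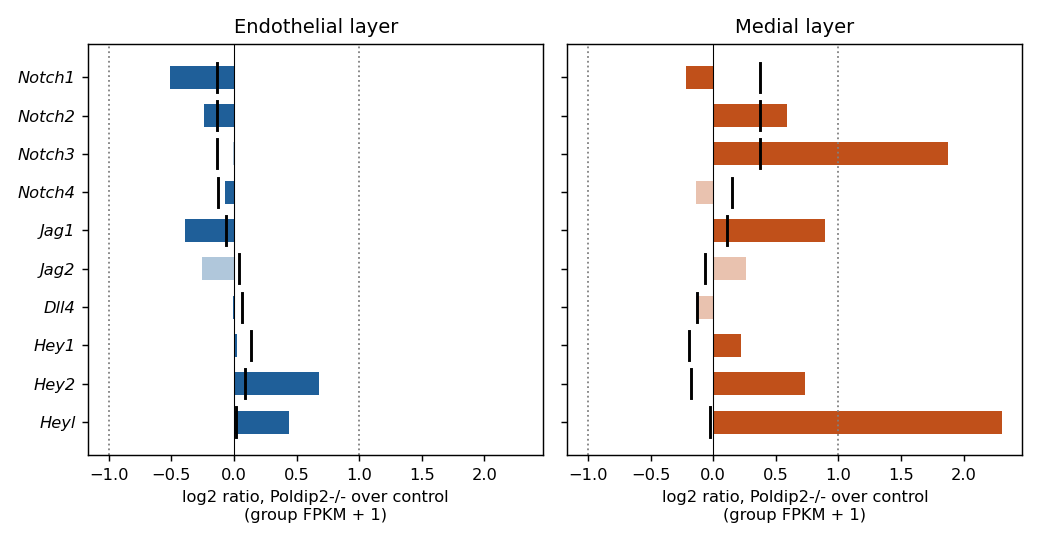
Log2 ratio of (FPKM + 1), Poldip2-/- over control, for each gene in the endothelial (left) and medial (right) layer; pale bars are genes under the minimum of 1 FPKM, black ticks the median of genes of like length, and dotted lines 2-fold. Heyl at 2.31 and Notch3 at 1.88 passed 2-fold in the medial layer, and no bar reached it in the endothelial layer.

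The medial rise of Notch3 and Heyl moved with the smooth muscle markers. Their log2 ratios of 1.88 and 2.31 stood beside a median of 2.25 over the 10 smooth muscle markers, with Acta2 at 1.99 and Myh11, smooth muscle myosin heavy chain, at 3.11 (83.8 and 729 FPKM). Pericyte markers were divided. In medial Poldip2-/- RNA 3 of 6 were called higher (Cspg4 at 3.71, Rgs5 at 3.21 and Pdgfrb at 1.42) and 1 lower (Kcnj8 at -1.22). Higd1b at -0.68 and Abcc9 at 0.01 were not called. Of all genes tested in that layer, 7.22% were higher and 14.3% lower. In the endothelial layer 4 of 8 smooth muscle markers tested were called higher, with a median of 1.00, and Heyl there was at 0.44. As a share of the medial level, endothelial Heyl was 5.32% in control and 1.76% in Poldip2-/-, within the range of the smooth muscle markers (0.918% to 46.2% and 0.326% to 13.9%). Conversely, medial Notch1, Notch4 and Dll4 were 4.95%, 3.16% and 5.29% of their endothelial level in control, beside a median of 4.46% for the endothelial markers. In Poldip2-/- arteries they were 5.62%, 2.73% and 3.81%, beside 2.01%. Medial Hey2, at 31.2% and 33.1%, and medial Notch2, at 43.5% and 86.0%, were well above those medians. The endothelial markers ranged from 2.63% to 79.0% in control and from 1.54% to 37.3% in Poldip2-/-. The top of both ranges was Kdr alone, with 1.21 and 0.450 FPKM in the medial groups, and it was under the minimum between layers in Poldip2-/-. The next highest markers were Emcn in control, at 0.118 of its endothelial level, and Esam in Poldip2-/-, at 0.0627. All of these Hey2 and Notch2 values lay above those next markers, and only that of Notch2 in Poldip2-/- lay above Kdr as well. The part of cell make-up in these ratios was not tested.

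Background at low FPKM was highest in medial control RNA. Of 1085 olfactory receptor genes, which a vessel should hardly express, 93.1% were listed above 0 in medial control and 7.19% in medial Poldip2-/-, against 70.0% and 27.2% in the endothelial groups. Their 95th percentile was 1.52 FPKM in medial control and 0.0136 in medial Poldip2-/-. Notch3, Notch4, Jag2 and Dll4 lay below that percentile in medial control and none of the 10 genes did in medial Poldip2-/-. These olfactory genes have a median length of 948 bases, far shorter than the receptors, so that a given FPKM stands for fewer reads in them. The control value under the Notch3 ratio (0.966 FPKM) lay in this range, whereas that under the Heyl ratio (19.2) was far above it.

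Comparing the layers, 6 of the 8 genes tested in control arteries were called lower in the medial layer (Notch1, Notch2, Notch4, Jag1, Dll4 and Hey2) and 1 higher (Heyl). The rule called 12.1% of all genes tested lower and 20.2% higher. In Poldip2-/- arteries 5 of 9 were called lower (the same genes without Notch2) and 2 higher (Notch3 and Heyl), beside 13.3% and 14.1% of all genes tested. Notch3, Notch4 and Dll4 passed the minimum there only through the layer where they were high, as did Dll4 in control. Medians over the 10 genes were -1.32 and -0.80, against 0.10 and -0.12 over all genes. Of all calls in control, 62.6% were higher in the medial layer, but 43.1% from scaled read counts. The layer and genotype comparisons share their groups, so they are given side by side and not as separate evidence.

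Among the genes that passed the minimum in both layers, the genotype ratio itself differed most between layers for Heyl. Its medial log2 ratio exceeded the endothelial one by 1.87. Jag1 followed at 1.29, Notch2 at 0.84, Notch1 at 0.30, Hey1 at 0.20 and Hey2 at 0.06. For Notch3 the difference was 1.89, but its endothelial mean of 0.0566 FPKM was under the minimum. The pseudocount held its endothelial ratio at -0.01, so 1.89 restates the medial ratio of 1.88 and cannot show a layer difference. Jag2 at 0.51 was under the minimum in both layers, and Notch4 at -0.06 and Dll4 at -0.13 in the medial layer. The pseudocount held these differences down as well. With centring by length the difference was 1.37 for Notch3, 1.91 for Heyl, 1.11 for Jag1, 0.62 for Jag2, 0.53 for Hey1, 0.33 for Hey2, 0.32 for Notch2 and -0.34 for Notch4, and it changed sign for Notch1 (-0.22) and Dll4 (0.06). None of these differences was tested, since no group has a spread.

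**Figure D4:**
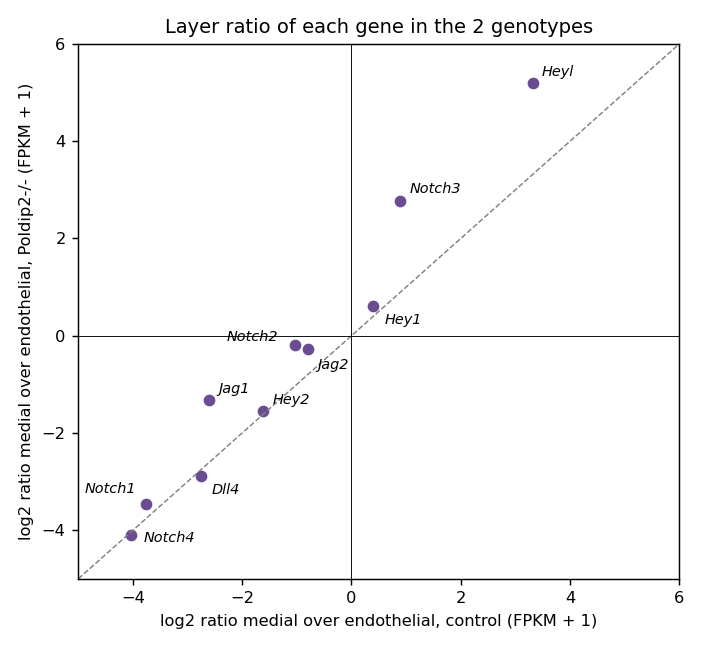
Log2 ratio of (FPKM + 1), medial over endothelial, in control (horizontal) against Poldip2-/- arteries (vertical), 1 point per gene, with a dashed line of equal ratio. Heyl (3.32 and 5.19), Notch3 (0.89 and 2.78) and Jag1 (-2.61 and -1.32) lie above the line, and Hey2, Dll4 and Notch4 close to it.

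Other genes of the pathway gave a mixed picture between genotypes. Of 62 listed, covering further ligands, proteases, glycosyltransferases, coactivators, corepressors and regulators, 49 passed the minimum in the endothelial layer. None was called higher and 1 lower, Thbs2, a matricellular protein (2.72 and 0.831 FPKM, log2 ratio -1.02). Of all genes tested in that layer, 0.434% were higher and 1.44% lower. Medially 50 passed, 5 were called higher and 5 lower, with a median of -0.05. These shares were near those of all genes tested (7.22% higher and 14.3% lower), so the counts set the list apart in neither direction. Higher were Dtx3, a Deltex-family ubiquitin ligase (13.8 and 66.7 FPKM), the coactivators Maml2 (2.60 and 8.57) and Crebbp (3.11 and 7.99), the corepressor Spen (1.10 and 3.68) and Neurl2, of the Neuralized family (0.991 and 3.86). Crebbp and Spen also lie in the longest bin. The control values of Spen and Neurl2 lay under the olfactory receptor 95th percentile of medial control, 1.52 FPKM. Lower were Mfng, a Fringe glycosyltransferase that modifies Notch receptors (7.59 and 1.63), Dtx4, another Deltex gene (20.5 and 7.72), Neurl3 (4.88 and 1.53), the matrix gene Mfap5 (595 and 279) and Egfl7, a secreted endothelial protein (12.2 and 4.86).

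None of the following genes of the core machinery was called between genotypes. Rbpj had 14.3 and 14.5 FPKM in the endothelial groups and 16.4 in each medial group. Psen2 and Ncstn, which encode subunits of gamma-secretase, the protease that releases the intracellular domain, gave medial genotype ratios of 0.10 and -0.09. The sheddase Adam17 was at -0.02 and Adam10 at -0.64. The Fringe gene Lfng had 6.69 and 2.96 FPKM in the medial groups (ratio -0.96), a 2.26-fold difference in FPKM that missed the threshold on the (FPKM + 1) scale. Rfng had 16.8 and 26.7 (0.64).

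Further Notch targets were not called between genotypes. Nrarp, a target and feedback inhibitor of Notch signalling, had 65.3 and 50.6 FPKM in the endothelial groups and 2.76 and 1.23 in the medial groups, with genotype ratios of -0.36 and -0.75. Medial Nrarp was thus 2.24-fold lower in FPKM in Poldip2-/- arteries but missed the threshold on the (FPKM + 1) scale. Hes1, a repressor of the related Hes family, had 30.5 and 21.1 in the endothelial groups (ratio -0.51) and 11.6 and 13.3 in the medial groups (0.18). Between layers, 19 of 50 pathway genes tested in control were lower in the medial layer and 6 higher, and 14 and 8 of 51 in Poldip2-/-. Over all genes tested the shares were 12.1% lower and 20.2% higher in control, and 13.3% and 14.1% in Poldip2-/-. Dll1, Egfl7, Nrarp and Adam10 were among those lower in both genotypes, and Thbs2, Mfap2, Dner and Dtx4 among those higher in both.

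**Figure D5:**
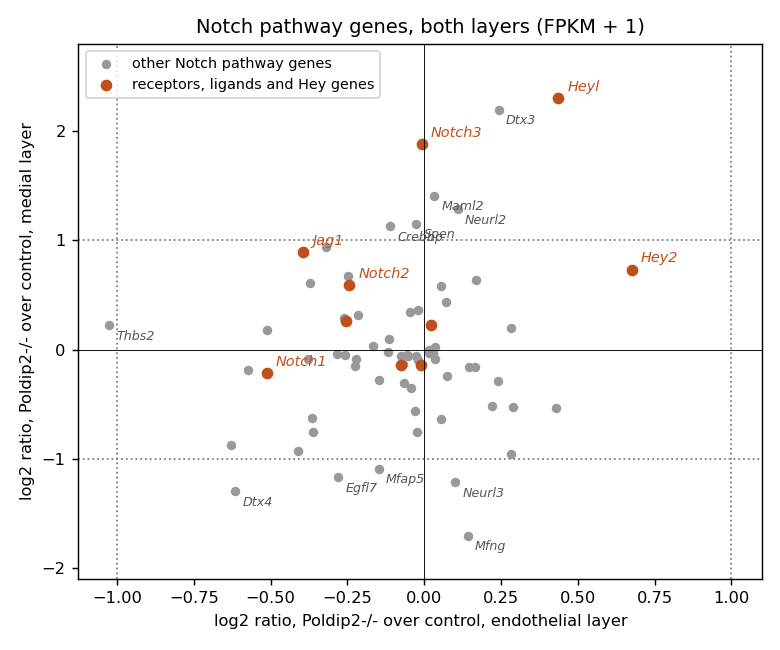
Log2 genotype ratio of (FPKM + 1) in the endothelial (horizontal) against the medial layer (vertical) for the 10 genes (orange) and 62 other Notch pathway genes (grey), with dotted lines at 2-fold; grey genes past 2-fold are named. Heyl, Dtx3 and Notch3 stand at the top, at 2.31, 2.197 and 1.88, and Mfng at the bottom, at -1.71.

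Genes with the most similar pattern over the 4 groups were sought among 8428 genes, by the Euclidean distance of their centred log2(FPKM + 1) values, for the 6 genes with a mean of at least 5 FPKM. With only 4 values per gene this measure is coarse. Heyl lay nearest to Hspb6 (distance 0.18), Asb2 and Fbxl22, all genes known from muscle. Hspb6, a small heat shock protein of smooth muscle, had 4.83 and 7.66 FPKM in the endothelial and 55.1 and 265 in the medial groups. Notch4 lay nearest to Gpr4, Fgfr3 and Als2cl, Notch1 to Elovl7, Tbx1 and Stab1, and Jag1 to Bcar1, Aqp1 and Pear1. For Hey2 they were Specc1, Ccrl2 and Samd10, at distances of 0.17 to 0.24. Notch2 lay close to Larp4b and Mtor, at distances of 0.05 and 0.07.

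Some exons of these genes overlap others. In the GENCODE annotation of GRCm38, 7.50% of the exon bases of Notch1 are shared with the antisense gene 0610009E02Rik, 6.03% of those of Notch3 with Gm17276 and 5.56% of those of Dll4 with Gm14207, also antisense. Whether strand was used in counting is not given in the sources used here, so reads from these stretches cannot be assigned to either gene. Gm17276 was listed at 0.0373 FPKM or less in all 4 groups, and 0610009E02Rik at 0.381 or less. Gm14207 had 0.871 and 0.909 FPKM in the endothelial groups. In the medial groups it had 0.236 and 0.0265, where Dll4 had 0.473 and 0.338. Notch2 shares 5.02% of its exon bases with Gm42820 on the same strand, so strand could not separate them.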

How the data were processed

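Total RNA of carotid flushes and of the remaining vessel was poly(A) selected and sequenced with paired ends. Per the labels and the study's methods, the authors filtered and aligned the reads to a mouse genome named mm9 (Bowtie and TopHat, with STAR 2.5, HTSeq 0.6.1, DESeq2 and edgeR 3.16.5 also named in the submitters' processing notes) and deposited FPKM values, 1 per group in the 4 columns used here. How a group's FPKM was made from its libraries, and the depth of each library, are not given in the sources used here. Start and end of 72.2% of 34490 matched genes equalled GENCODE M21 on GRCm38 and 97.4% had an end within 1000 bases, so positions are given on GRCm38.

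The 24 columns of single samples, numbered by animal, could not be tied to a genotype by the labels and were not used. The 24 columns of the authors' 6 comparisons (fold changes, p-values, calls) were not used either. Deposited scaled group read counts served as an alternative only. Ratios of log2(FPKM + 1) were computed with Python 3.11.15, numpy 2.4.6 and pandas 2.3.3, and the calling rule was tested on simulated data. Genes of length similar to each member came from 20 bins. Named were all 10 members, Poldip2, fixed pathway genes (Rbpj, Psen2, Adam10, Adam17, Ncstn, Lfng, Mfng, Rfng, Nrarp, Hes1), up to 6 called genes per list and direction between genotypes, 4 markers and the 3 nearest patterns. Dll1, the pericyte markers and the layer examples were added after values were seen. Members, lists, pool shares and the olfactory receptor check were chosen with earlier results of these data known. Some items that these rules name are not reported here. Promoter windows are from RefSeq.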

Additional observations from a re-analysis of the deposited data

How the results depend on the processing

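No paired analysis was possible because only 1 value per group was used, and for the same reason no replicate could be left out. Of 320 values of single genes under 8 alternatives, 0 reversed a call, 5 lost the call, 8 gained one and 307 stayed on the same side of the threshold, most of them never past it, and 6 ratios near 0 changed sign. Between genotypes in the endothelial layer, 0 of the 10 genes were called, and 1 (Hey2) with a 1.5-fold threshold. All genes called there numbered 216, and 116 with a minimum of 5 FPKM, 347 with a pseudocount of 0.1, 587 at 1.5-fold and 360 from scaled read counts. In the medial layer 2 of the 10 were called, 1 (Heyl) with a minimum of 5 FPKM and 5 at 1.5-fold (Notch2, Notch3, Jag1, Hey2 and Heyl). All genes called there numbered 2821, and 4292 with no minimum (22.5% of them higher), 1491 with a minimum of 5 FPKM (44.7% higher) and 5322 at 1.5-fold. Between layers in control 4317 were called, and 2492 with a minimum of 5 FPKM (49.9% higher) and 7126 at 1.5-fold, and in Poldip2-/- arteries 3329, and 5515 at 1.5-fold. Fewer or more genes tested, a lower threshold or a smaller pseudocount set the direction of these changes by construction. The cause of the others was not tested. Precision is limited by the lack of a spread and of a stated depth.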

Other observations

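Genes tied to arterial endothelial identity were mostly lower in the medial layer. Of 19 listed, 17 passed the minimum, and 14 were lower and 0 higher in the medial layer in control, and 11 and 1 in Poldip2-/- arteries, where Mef2c was the higher one. Over all genes tested 12.1% were lower and 20.2% higher in control, and 13.3% and 14.1% in Poldip2-/-. Between genotypes 0 of 17 were called in the endothelial layer, beside 0.434% of all genes tested higher and 1.44% lower. For medial RNA 3 of 17 were called higher and 2 lower, beside 7.22% and 14.3% of all genes tested. The median medial ratio over these 17 was 0.45, beside -0.17 over all genes tested. Genes not called went both ways, such as Gja4 at 0.86 and Sox18 at -0.90. Medially, Mef2c, Foxc1 and Foxc2, transcription factor genes also expressed outside the endothelium, were higher in Poldip2-/- (log2 ratios 1.55, 1.01 and 1.13), while Gja5, encoding the gap junction protein connexin 40, and Bmx, a tyrosine kinase gene, were lower (-1.22 and -1.72).

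Among 16 genes of bHLH partners and repressors related to the Hey family, 15 were in the table. None was called between genotypes in the endothelial layer (of 12 tested). In the medial layer 3 of 13 were higher in Poldip2-/- and 0 lower. They were Tle2, a Groucho-family corepressor (1.92 and 6.48 FPKM, log2 ratio 1.36), and Id2, an inhibitor of bHLH factors (136 and 331, 1.28). The third was Bhlhe41, a bHLH repressor (0.743 and 2.96, 1.19). Its control value lay under the olfactory receptor 95th percentile of 1.52 FPKM in that layer. Over all genes tested there, 7.22% were higher and 14.3% lower.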
